A study of Homo sapiens with 6 samples.

Results

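INSR, IGF1R, IRS1, IRS2, IRS4, PIK3CA, PIK3R1, AKT1 and AKT2 encode the receptors, docking proteins, lipid kinase subunits and kinases that carry the insulin and IGF signal toward mTOR. They were chosen by name, as 9 of the 61155 gene symbols counted. The rule itself uses no measured value, but earlier results of these data were known when the genes were chosen. The counts came from bulk RNA sequencing of undifferentiated H7 human embryonic stem cells (hESCs), an established pluripotent line grown without feeder cells in a medium that contains insulin. There were 3 wild-type (WT) libraries and 3 libraries of S6K1-/- hESCs, in which guides to exons 9 and 11 of RPS6KB1, the gene of S6K1, had been used with Cas9. The comparison asked what the loss of S6K1 changes in the transcripts of stem cells before they are led to brain organoids. The S6K1-/- cells were a single clone (clone #1), so the genotype and any property of that clone cannot be told apart. The labels call the genotype a knockdown and give week 5 to both groups, although they also call the cells undifferentiated. They do not say whether the libraries of a group came from separate cultures, and the p-values therefore measure only the spread between these libraries.

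Insulin binds the receptor INSR, and the insulin-like growth factors bind chiefly IGF1R. The activated receptors phosphorylate insulin receptor substrate (IRS) proteins, which recruit PI3K through its regulatory subunit PIK3R1, and the catalytic subunit PIK3CA then makes the membrane lipid that recruits AKT. AKT relieves the TSC brake on mTORC1, S6K1 is a kinase below mTORC1, and S6K1 is known to phosphorylate IRS1 and thereby restrain the same route.

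The library totals ranged from 21896698 to 24473013 counts, and mitochondrial genes took 8.54% to 9.74% of each library. Of 14 pluripotency markers, all 14 were measurable. Past the threshold below, 2 were lower and 1 higher in S6K1-/- hESCs, or 21.4% beside 3.96% of all genes tested. The summed level of the 14 was 7907 to 8066 CPM (counts relative to library size) in WT and 7390 to 7488 CPM in S6K1-/- hESCs. The targeted gene RPS6KB1 had 831, 791 and 777 counts in WT and 464, 464 and 438 counts in S6K1-/- hESCs. Its log2 fold change was -0.75 (SE 0.057, n = 3 per group; adjusted p = 2.52e-07, edgeR quasi-likelihood test with Benjamini-Hochberg adjustment). Transcripts of the deleted gene were thus still counted in every S6K1-/- library, at a lower level than in any WT library.

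The 9 genes differed little between the genotypes. The study's own comparison used an adjusted p under 0.001 with DESeq2's Wald test. Here a gene was called at the same threshold in edgeR's quasi-likelihood test over 19521 genes. Of the 9 genes, 0 passed it, beside 3.96% of all genes tested in either direction, 2.54% lower and 1.42% higher in the absence of S6K1. When the threshold was an adjusted p under 0.05, 2 of the 9 passed, AKT1 with a higher and IRS4 with a lower level, beside 13.8% of all genes tested. AKT1 passed 0.05 in all 11 alternative settings and IRS4 in 6 of them. Without adjustment, 5 of the 9 had a p under 0.05, beside 26.4% of all genes. With DESeq2's Wald test, 1 of the 9 passed 0.001, namely AKT1, with an adjusted p of 1.39e-04.

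The direction of the differences was mixed. It was negative in 5 cases and positive in 4, and the median log2 fold change of the 9 was -0.01 beside -0.0024 over all genes tested. The median of its absolute size was 0.12 for the 9 genes and 0.11 for all genes. In CPM, scaled by the TMM method, 4 of the 9 genes had groups without overlap, INSR with the lower S6K1-/- level and PIK3R1, AKT1 and AKT2 with the higher, beside 30.7% of all genes. In bulk RNA, fewer cells of a type and less RNA per cell cannot be told apart.

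**Figure D1:**
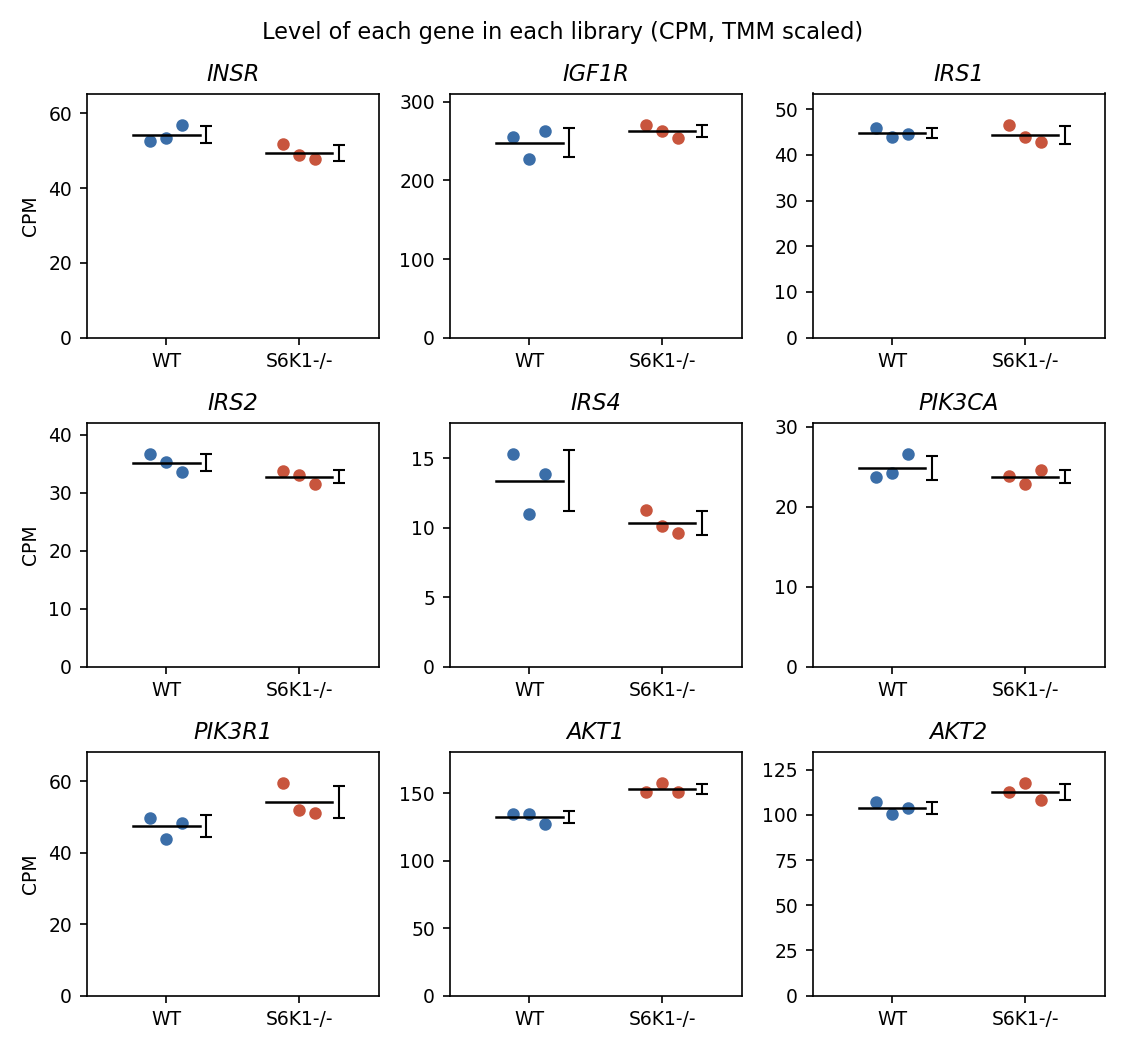
Level of each of the 9 genes in each library, in CPM on linear axes that start at 0. Each point is 1 library (blue, WT; red, S6K1-/-), the horizontal line is the group mean and the bracket beside it is 1 SD (n = 3). The points of the groups lie apart for INSR, PIK3R1, AKT1 and AKT2 and share a range for the other 5 genes.

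The sequence before the transcription start is shown for AKT1, IRS4 and PIK3R1, the 3 of the 9 genes with the smallest adjusted p, chosen by that rank alone. The windows are the 250 bases before the first start listed in RefSeq on GRCh38.p14, printed 5′ to 3′ on the strand of the gene. They cover chr14:104795749-104795998 on the minus strand for AKT1, chrX:108736564-108736813 on the minus strand for IRS4 and chr5:68215506-68215755 on the plus strand for PIK3R1. Capitals mark GGGCGG, the core of the GC box, or its reverse complement CCGCCC.
AKT1: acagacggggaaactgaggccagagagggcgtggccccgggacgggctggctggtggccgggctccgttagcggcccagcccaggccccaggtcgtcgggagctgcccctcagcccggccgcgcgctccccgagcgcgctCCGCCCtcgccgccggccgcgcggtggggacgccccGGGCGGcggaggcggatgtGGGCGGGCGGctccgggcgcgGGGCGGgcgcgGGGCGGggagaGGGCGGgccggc
IRS4: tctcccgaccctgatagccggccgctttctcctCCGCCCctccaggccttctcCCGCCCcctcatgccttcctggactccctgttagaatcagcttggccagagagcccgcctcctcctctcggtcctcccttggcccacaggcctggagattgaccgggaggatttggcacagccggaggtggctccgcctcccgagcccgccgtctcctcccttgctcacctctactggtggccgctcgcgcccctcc
PIK3R1: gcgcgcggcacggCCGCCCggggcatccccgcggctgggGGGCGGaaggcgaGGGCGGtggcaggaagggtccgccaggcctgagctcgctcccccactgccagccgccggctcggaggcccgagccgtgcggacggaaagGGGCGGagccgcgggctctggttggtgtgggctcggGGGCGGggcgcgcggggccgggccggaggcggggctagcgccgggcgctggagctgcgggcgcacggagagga

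The AKT1 window held 7 GC box cores and 39 CpG dinucleotides, and the PIK3R1 window held 5 and 37. The IRS4 window held 2 cores and 16 CpG dinucleotides, beside a median of 11 CpG dinucleotides over 35116 windows of the same length. Among the rest of the 9, INSR had 28 CpG dinucleotides, IGF1R 48, IRS1 39, IRS2 42, PIK3CA 15 and AKT2 18. High and low CpG counts thus occurred with both signs of the log2 fold change. All 9 genes had at least 1 GC box core on either strand, from 1 in PIK3CA to 7 in AKT1, and 42.6% of all windows had one. The letters GTAAACA, the core of the site of FOXO factors, were found on either strand in the PIK3CA window alone among the 9, and in 2.98% of all windows. CCAAT was found in the windows of IRS2, with 2 matches, and PIK3CA, with 1 match, and in 32.0% of all windows. A match is a run of letters and not a measured site.

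Both receptors were expressed in every library. INSR (chr19:7112255-7294414 of GRCh38, minus strand, 22 exons in its canonical transcript) had 1278, 1312 and 1319 counts in WT and 1218, 1167 and 1039 counts in S6K1-/- hESCs. All 3 S6K1-/- libraries lay below the WT libraries, at 49.4 ± 2.16 CPM against 54.2 ± 2.27 CPM (mean ± SD, n = 3). The difference, a log2 fold change of -0.13 (95% interval -0.24 to -0.026), had an adjusted p of 0.0971 in edgeR's quasi-likelihood test and was not called.

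IGF1R (chr15:98648539-98964530, plus strand, 21 exons), the main receptor of the insulin-like growth factors, had 6199, 5590 and 6092 counts in WT and 6341, 6288 and 5540 counts in S6K1-/- hESCs. The groups overlapped, at 248 ± 18.3 CPM in WT and 262 ± 7.78 CPM in S6K1-/- hESCs. On the log2 scale the difference was 0.08 (95% interval -0.027 to 0.19; adjusted p = 0.339, edgeR), and it ranged from 0.023 without WT library 2 to 0.13 without WT library 3. Per kilobase of exon, INSR made up 21.0%, 23.2% and 21.8% of the sum of the receptors in WT hESCs, against 19.8%, 19.3% and 19.4% without S6K1. The share was lower in each S6K1-/- library than in any WT library.

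The IRS proteins are docking platforms without kinase activity. IRS1 (chr2:226731312-226799820, minus strand), the substrate that S6K1 itself is known to phosphorylate, had 1119, 1079 and 1035 counts in WT and 1091, 1053 and 930 counts in S6K1-/- hESCs. It had the smallest difference of the 9 genes, at 44.8 ± 1.06 CPM in WT and 44.4 ± 1.90 CPM in S6K1-/- hESCs. Its log2 fold change of -0.01 had a 95% interval of -0.12 to 0.092 (adjusted p = 0.905, edgeR). A change in IRS1 mRNA beyond -7.88% or 6.62% thus lay outside that interval.

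IRS2 (chr13:109752695-109786583, minus strand), the IRS family member that is widely expressed beside IRS1, had 891, 866 and 781 counts in WT and 792, 791 and 687 counts in S6K1-/- hESCs. In CPM the highest S6K1-/- library, at 33.7, was just above the lowest WT library, at 33.6. This gave a log2 fold change of -0.10 (95% interval -0.22 to 0.017; adjusted p = 0.267, edgeR), or -0.062 without WT library 1.

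IRS4 (chrX:108719946-108736563, minus strand), an X-linked family member with a narrow tissue distribution, had 372, 270 and 322 counts in WT and 265, 242 and 209 counts in S6K1-/- hESCs. The second WT library, at 11.0 CPM, lay within the S6K1-/- range of 9.60 to 11.3 CPM, and the other 2 lay above it. With a log2 fold change of -0.37 (SE 0.109), IRS4 had the largest difference of the 9 genes, and its 95% interval ran from -0.60 to -0.14. The adjusted p was 0.0346 in edgeR's quasi-likelihood test. Its value rested on single libraries, with a log2 fold change of -0.25 and an adjusted p of 0.171 without the first WT library and of -0.49 and 0.00143 without the second. The adjusted p was also above 0.05 without WT library 3 (0.119), without S6K1-/- library 2 (0.102) or 3 (0.141), and with DESeq2's Wald test (0.0763). IRS4 made up 8.38% of the sum of the 3 IRS genes per kilobase of exon in WT and 6.85% in S6K1-/- hESCs, but 18.6% and 15.5% per kilobase of canonical transcript.

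**Figure D2:**
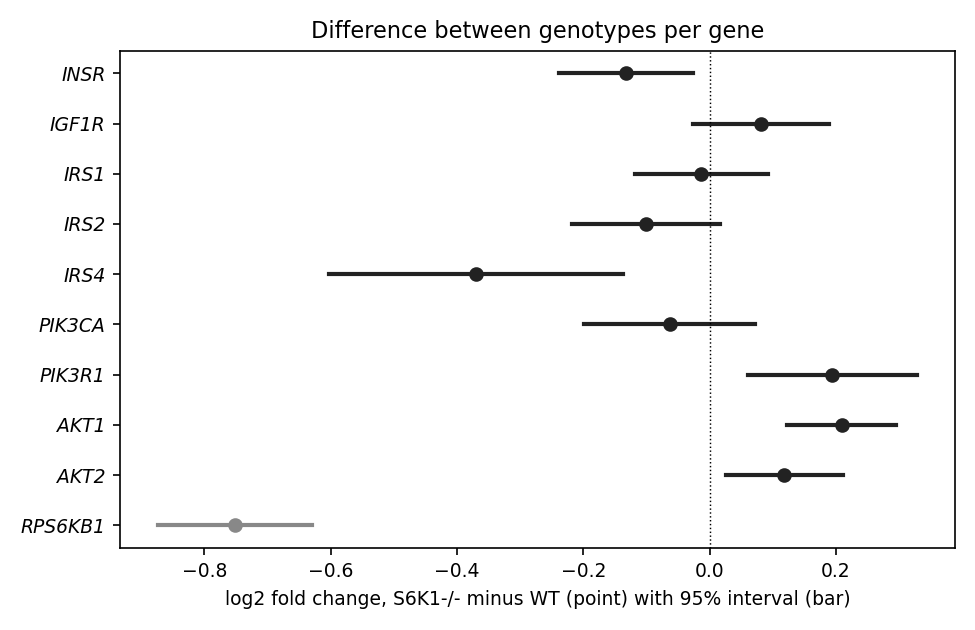
Log2 fold change of S6K1-/- against WT hESCs for the 9 genes (black) and for the targeted gene RPS6KB1 (grey), with points for the estimate and bars for its 95% interval from edgeR's quasi-likelihood fit (n = 3 per group). The bars of INSR and IRS4 lie below 0, those of PIK3R1, AKT1 and AKT2 above 0, and all 9 lie closer to 0 than the bar of RPS6KB1.

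For PI3K, the catalytic and the regulatory subunit were read separately. PIK3CA (chr3:179148114-179240093, plus strand, 21 exons), which carries the kinase activity, had 577, 596 and 617 counts in WT and 560, 548 and 535 counts in S6K1-/- hESCs. The groups overlapped in CPM, and the log2 fold change was -0.06 (95% interval -0.20 to 0.072; adjusted p = 0.585, edgeR), or -0.0061 without WT library 3. PIK3CA shares 3403 exonic bases, 19.8% of its exonic length, with KCNMB3 on the opposite strand. KCNMB3 itself had 116 to 160 counts per library, and the strand setting of the counting is not given in the sources used here.

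PIK3R1 (chr5:68215740-68301821, plus strand, 16 exons), the regulatory subunit that binds phosphorylated IRS proteins, had 1213, 1081 and 1126 counts in WT and 1396, 1248 and 1113 counts in S6K1-/- hESCs. The levels were 47.4 ± 3.06 CPM in WT and 54.2 ± 4.55 CPM in S6K1-/- hESCs, with the lowest S6K1-/- library at 51.1 and the highest WT library at 49.8 CPM. The log2 fold change of 0.19 (SE 0.063; 95% interval 0.061 to 0.33) had an adjusted p of 0.0526 in edgeR's quasi-likelihood test. Without the first S6K1-/- library, which was the highest, the log2 fold change was 0.12 and the adjusted p 0.266. Over the 11 alternative settings the log2 fold change ranged from 0.12 to 0.24 and the adjusted p from 0.00555 to 0.266, under 0.05 in 5 of them and under 0.001 in 0.

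AKT1 and AKT2 encode kinases that phosphorylate many of the same substrates, AKT2 being the form most tied to insulin-driven glucose uptake. AKT1 (chr14:104769349-104795751, minus strand, 15 exons) had 3280, 3312 and 2956 counts in WT and 3539, 3764 and 3278 counts in S6K1-/- hESCs. Scaled to library size, the WT libraries had 135, 135 and 127 CPM and the S6K1-/- libraries 151, 157 and 151 CPM. The gap between the groups was wider than the spread within either, and the log2 fold change was 0.21 (SE 0.041; 95% interval 0.12 to 0.30), a level higher by 15.6%. With an adjusted p of 0.00253 in edgeR's quasi-likelihood test it stood nearest to the threshold among the 9 genes. It passed the threshold in 2 of 11 alternative settings, DESeq2's Wald test and no filter on low counts, and its adjusted p ranged from 1.02e-04 to 0.0173 over the 11.

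AKT2 (chr19:40230317-40285536, minus strand, 14 exons) had 2607, 2478 and 2412 counts in WT and 2640, 2813 and 2359 counts in S6K1-/- hESCs. After scaling, the S6K1-/- libraries lay at 108 to 117 CPM and the WT libraries at 101 to 107 CPM. Its log2 fold change was 0.12 (95% interval 0.026 to 0.21; adjusted p = 0.0862, edgeR), with the same sign as that of AKT1. Per kilobase of exon, AKT2 made up 35.1% of the sum of AKT1 and AKT2 in WT (34.0% to 36.0% by library) and 33.7% in S6K1-/- hESCs (33.1% to 34.0%). Every S6K1-/- library was just below the WT range, by less than the spread between the WT libraries.

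**Figure D3:**
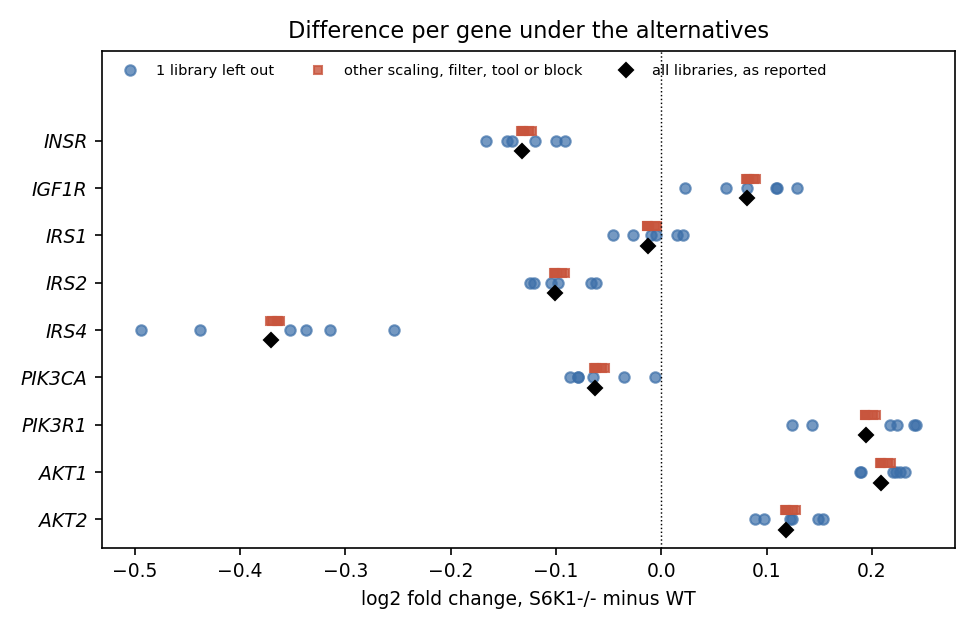
Log2 fold change of S6K1-/- against WT hESCs for each of the 9 genes with all libraries (black diamonds), with 1 library left out (blue circles) and with another scaling, filter, tool or replicate block (red squares). IRS4 moved most with the libraries included, from -0.49 to -0.25, IRS1 was the only gene of the 9 whose sign changed, and AKT1 stayed between 0.19 and 0.23.

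Levels of different genes can be set side by side only per length. In WT hESCs, CPM per kilobase of exon ranked IGF1R first at 17.8 ± 1.32, then AKT1 at 12.1 ± 0.394, AKT2 at 6.53 ± 0.198 and INSR at 5.01 ± 0.209. IRS1 at 4.47 ± 0.106 and IRS2 at 4.31 ± 0.183 followed, with libraries that overlapped. PIK3R1 at 2.91 ± 0.188, PIK3CA at 1.44 ± 0.0884 and IRS4 at 0.805 ± 0.132 came last. The order of the means was the same in S6K1-/- hESCs, where the libraries of INSR and IRS1 overlapped. Several places in this order depended on the length used. IGF1R over AKT1 was 1.47 in WT and 1.35 in S6K1-/- hESCs per exonic length, but 0.453 and 0.415 per length of the canonical transcript. PIK3R1 moved from below INSR, IRS1 and IRS2 to above them, at 6.80 per kilobase of canonical transcript in WT beside 5.73 for INSR, and likewise per kilobase of coding sequence. AKT2 stood level with IGF1R in S6K1-/- hESCs per kilobase of canonical transcript, at 21.5 beside 21.4. The reads had been aligned without splicing, which can lower the counts of genes with many short exons by an amount that was not measured.

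Other genes of the route were read from 9 lists. Of the genes reported here, 211 in all, 179 were tested, and of these 6 were lower and 2 higher in S6K1-/- hESCs past 0.001, or 4.47% beside 3.96% of all genes tested. The calls of listed genes that are not reported here are not included, so these totals and the counts per list may be incomplete. Among the ligands and other insulin-family receptors, 2 of 12 genes had enough counts, and 0 of them passed. INS, the insulin gene, had 0 counts in every library, and IGF1 and IGF2 had at most 2, all at or under a floor of 3 counts. The count of IGF2 is uncertain, since 37.9% of its exonic length is shared with ENSG00000284779 and 20.4% with INS-IGF2, both on the same strand. INSRR, the orphan receptor of the family, had 2 to 5 counts. IGF2R, which clears IGF2 from the surface, had a log2 fold change of 0.13 (adjusted p = 0.0963, edgeR), with 0.081 without WT library 2 and 0.19 (adjusted p = 0.0219) without WT library 1. RLN2, a relaxin, had one of 0.10 (adjusted p = 0.849, edgeR).

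The other receptor tyrosine kinases held the largest decreases among the lists. Of 22 tested, 3 were lower past the threshold and 0 higher, beside 2.54% and 1.42% of all genes. TEK, the angiopoietin receptor, had 281, 277 and 250 counts in WT and 30, 33 and 23 counts in S6K1-/- hESCs, which gave a log2 fold change of -3.17 (adjusted p = 9.90e-11, edgeR). All S6K1-/- libraries were far below the WT range. DDR2, a collagen receptor, had a log2 fold change of -1.59 and PDGFRB, a receptor of platelet-derived growth factors, one of -1.34. PDGFRB is also in the list of mesenchyme and fibroblast markers, in which 5 of 8 tested genes were lower, with a median log2 fold change of -0.90 and a summed level of 742 to 767 CPM in WT and 605 to 631 CPM in S6K1-/- hESCs. Most of that sum was THY1, at 488 CPM in WT and 480 CPM in S6K1-/- hESCs, while COL1A1 had a log2 fold change of -1.79 and TAGLN one of -1.25. In that list COL3A1, DCN, LUM and TWIST1 had at most 3 counts in every library. Of the blood and endothelial markers, 0 of 3 tested passed and 5 of 10 had at most 3 counts in every library, PECAM1 and PTPRC among them. CD34, of the same list, was too low to be tested, with 8, 9 and 7 counts in WT and 2, 2 and 0 counts in S6K1-/- hESCs. CDH5, also too low, had 1, 4 and 1 counts in WT and 3, 1 and 1 counts without S6K1. Among the tested markers of that list, KDR averaged 104 CPM in WT and 107 CPM without S6K1. The difference was 0.04 on the log2 scale (adjusted p = 0.635, edgeR). For RUNX1, at 0.93 CPM in WT, it was -0.25, and for TAL1, at 0.62 CPM, it was -0.15. Other marker lists moved too. Of the neuroectoderm markers 2 of 6 tested were lower and 1 higher. They summed to 68.2 to 73.1 CPM in WT and 33.6 to 34.5 CPM in S6K1-/- hESCs. Most of the WT sum was STMN2, at 49.9 CPM in WT and 15.3 CPM in S6K1-/- hESCs. The gene called higher was PAX6, with a log2 fold change of 0.76. Of the retinal markers 2 of 4 were lower, of the amnion and trophoblast markers 2 of 5 were higher, and of the mesendoderm markers 0 of 7 passed. The part of such cells in these results was not tested.

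Of the adaptor and docking proteins 0 of 28 passed, beside 3.96% of all genes tested, and at an adjusted p under 0.05 the share was 21.4% beside 13.8% of all genes. The genes with the smallest adjusted p were DOK5, a docking protein, with a log2 fold change of -0.56 (adjusted p = 0.00698, edgeR) and SHC1, an adaptor of activated receptors, with one of -0.16 (adjusted p = 0.0111). The other PI3K subunits had 0 of 10 past 0.001, and 1 lower and 1 higher of the 10 at an adjusted p under 0.05. PIK3C2B, a class II kinase, had a log2 fold change of 0.19 (adjusted p = 0.0339, edgeR), and PIK3CB, the catalytic subunit most like PIK3CA in its wide expression, one of -0.14 (adjusted p = 0.0380). With 1 library left out the adjusted p in edgeR rose to as much as 0.122 for PIK3C2B and 0.174 for PIK3CB. With DESeq2's Wald test it was 0.0784 for PIK3C2B and 0.181 for PIK3CB. PIK3R2, a close relative of PIK3R1, had 2 to 5 counts in each library, and 76.4% of its exonic length is shared with a readthrough gene on the same strand, so its count is uncertain.

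Among 27 phosphatases of the route 1 was higher and 0 lower, beside the same 1.42% and 2.54%. INPPL1, which removes a phosphate from the lipid that PI3K makes, had 2093, 2027 and 1908 counts in WT and 2432, 2523 and 2135 counts in S6K1-/- hESCs. Its log2 fold change was 0.29 (SE 0.042; adjusted p = 2.02e-04, edgeR's quasi-likelihood test). The call was lost without WT library 3 (adjusted p = 0.00206) and without S6K1-/- library 1 (0.00196) or 2 (0.00165), at log2 fold changes of 0.29, 0.29 and 0.27. Among the AKT regulators reported here, TRIB2, a pseudokinase of the Tribbles family, had a log2 fold change of 0.21 (adjusted p = 0.00161, edgeR) and PRR5L, a binding partner of mTORC2, one of -0.82 (adjusted p = 0.00242).

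Downstream of AKT, 0 of 26 substrates and effectors passed. TSC2, the subunit of the TSC complex that AKT phosphorylates, had a log2 fold change of 0.15 (adjusted p = 0.0201, edgeR) and PIKFYVE, a lipid kinase, one of 0.22 (adjusted p = 0.0277). The PIKFYVE value was 0.14 (adjusted p = 0.0744) without WT library 2 and 0.30 (adjusted p = 0.00375) without WT library 3. Of 22 other negative feedback regulators, 2 were lower and 0 higher, beside 2.54% and 1.42% of all genes. CAV1, the caveolin of plasma membrane caveolae, had a log2 fold change of -0.59 (adjusted p = 1.91e-05, edgeR). SOCS3, a suppressor of cytokine signaling that also binds the insulin receptor, had one of -0.42 (adjusted p = 9.36e-04), and this call was lost in 10 of 11 alternative settings, with adjusted p-values from 1.14e-05 to 0.00746.

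FOXO factors are held out of the nucleus by AKT, and 25 of their listed target genes were tested, of which 1 was higher and 1 lower, beside 1.42% and 2.54% of all genes. CAT, which encodes catalase, had 47, 42 and 54 counts in WT and 240, 223 and 224 counts in S6K1-/- hESCs. This was a log2 fold change of 2.32 (SE 0.123; adjusted p = 4.10e-09, edgeR), with groups far apart. TXNIP, which lowers glucose uptake, had one of -0.56 (adjusted p = 6.80e-04). That call was kept in 6 of 11 alternative settings and lost when WT library 1, 2 or 3 or S6K1-/- library 1 or 3 was left out, with adjusted p-values up to 0.00703. The median log2 fold change of the target list was -0.0061.

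**Figure D4:**
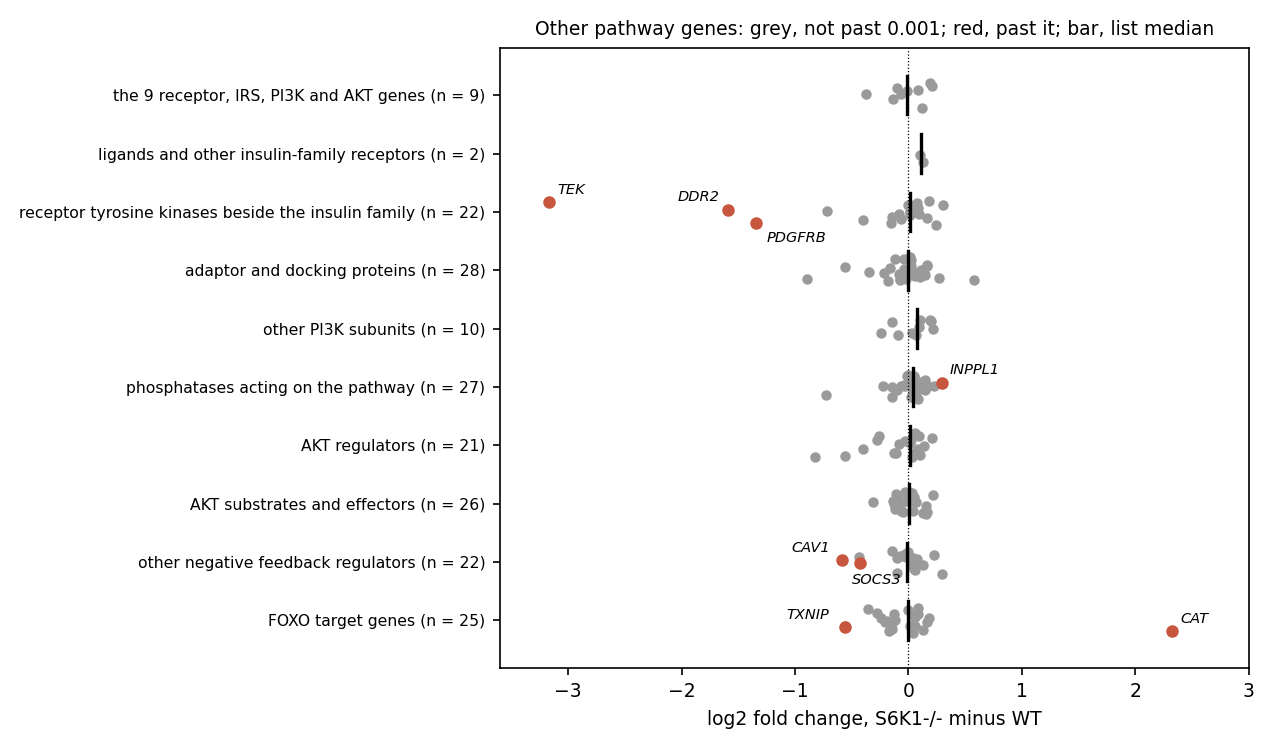
Log2 fold change of S6K1-/- against WT hESCs for the 9 genes and for the tested genes of each pathway list that are reported here. Each point is 1 gene (grey, not past an adjusted p of 0.001; red, past it, with its symbol), vertical scatter within a list has no meaning, and the black bar is the list's median. The 9 genes lie between -0.37 and 0.21, while TEK at -3.17 and CAT at 2.32 mark the ends of the range.

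The genes whose log2 CPM followed AKT1 most closely over the 6 libraries, out of 10483 genes whose average reached 10 CPM, were NETO2 (Pearson r = 0.998), ECEL1 (0.998) and RBM25 (0.997). For IRS4 they were SPATA13 (0.996), LRP8 (0.991) and KIAA1671 (0.987), and for PIK3R1 they included GFPT2 (0.990) and USP13 (0.989). These values are descriptions over 6 libraries that share 1 contrast and their depth, and they are the best of many genes.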

How the data were processed

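Messenger RNA libraries had been made with a stranded kit and sequenced as paired reads. According to the methods and the submitters' processing notes, the authors trimmed the reads with Trim Galore 0.6.5, aligned them to GRCh38 with Bowtie2 2.4.5, which does not align across splice junctions, and counted reads per gene with featureCounts. The counts were deposited by the authors as whole numbers without normalization. Neither the annotation release nor the strandedness of the counting is given in the sources used here. A second deposited table holds the authors' own DESeq2 1.37.4 comparison (mean level, fold change, error, statistic and p-values) and was not used.

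Genes were kept with filterByExpr of edgeR 4.0.16 in R 4.3.3, scaled by TMM and compared with the quasi-likelihood F test, with genotype as the only factor and Benjamini-Hochberg adjustment over all 19521 genes tested. The standard error was the log2 fold change over the square root of F. The total counts set the precision, and CPM are counts relative to the TMM-adjusted library size. The steps were tested on simulated data. Replicates of a group differed by more than counting noise (chi-square over its degrees of freedom, 2.11 to 4.14), and each was counted as 1 sample. That spread does not show whether they came from separate cultures. Symbols were placed with GENCODE 44, and promoter windows came from RefSeq. Alternate contigs were aligned with minimap2 2.31, keeping alignments of at least 1000 bases, and 0 of the 9 genes lay under one.

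The 9 genes and all lists were chosen with earlier results of these data known. The text names the 9 genes, RPS6KB1, up to 4 genes past the threshold in each list or else the 2 with the smallest adjusted p, and for the 3 of the 9 genes with the smallest adjusted p the 3 genes most correlated with each. Some genes that this rule would name, or that the lists held, are not reported here. KCNMB3 and the ligand, marker and PI3K genes given beside the results were named after their values were seen. Each fit was repeated with the size factors and with the Wald test of DESeq2 1.42.0, without the low-count filter, with a minimum of 10 counts per library, with a replicate block, with each library removed in turn, with a threshold of 0.05 and with other gene lengths.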

Additional observations from a re-analysis of the deposited data

How the results depend on the processing

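Of the 9 genes, 0 were called in either direction when any 1 library was left out (range 0 to 0), with DESeq2's size factors, with at least 10 counts in every library or with a replicate block. Without a filter on low counts 1 was lower (IRS4) and 1 higher (AKT1), DESeq2's Wald test called 1 higher (AKT1), and at a threshold of 0.05 there were 1 lower and 1 higher. Over all genes, 982 were lower and 591 higher without the filter, and 1622 and 1067 at 0.05, against 496 and 278. Leaving out 1 library gave 313 to 445 lower, the lowest without S6K1-/- library 3, and 175 to 235 higher, with 175 without S6K1-/- library 1 and 179 without S6K1-/- library 2. The pathway genes reported here had 11 lower and 6 higher without the filter and 18 and 15 at 0.05, against 6 and 2. At 0.05 this was 18.4% of the 179 tested, beside 13.8% of all genes tested. Without the filter, 206 pathway genes and 37733 genes in all were tested. With 1 library left out, 4 to 5 pathway genes were lower and 1 to 2 higher (1 without WT library 3 or S6K1-/- library 1 or 2). The log2 fold change of IRS1 ranged from -0.046 to 0.021 with 1 library left out and turned positive without WT library 1 (0.014) or S6K1-/- library 3 (0.021). That of RLN2 ranged from -0.058 to 0.30, with the negative value without WT library 3. IGF1R over AKT1 turned from above to below 1 per canonical transcript (0.453 in WT, 0.415 in S6K1-/- hESCs) and per coding length (0.713 and 0.653). The cause of these shifts was not tested, beyond the number of samples or genes each setting itself changes.

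Replicate numbers were not taken as pairs. No label ties them to a batch, and same-numbered libraries deviated together with r of 0.197, 0.103 and 0.0822, with 3 of 6 libraries closest to their own number. With the replicate block, 423 genes were lower and 241 higher, 0 and 0 of the 9 genes and 5 and 2 in the pathway lists.

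Low counts limit what can be said of the ligands, INSRR and PIK3R2. With 3 libraries per group, 1 clone and mRNA alone, protein levels and phosphorylation were not measured.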
